A study of Mus musculus with 11 samples.

Results

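Glutathione S-transferases are enzymes that join glutathione to reactive compounds, and 10 of their genes were followed here in mouse liver: Gsta2, Gsta3 and Gsta4 of the alpha class, Gstm1, Gstm2, Gstm3, Gstm4 and Gstm6 of the mu class, Gstp1 of the pi class and Gstt1 of the theta class. Every probe set whose platform annotation gave one of these symbols alone was taken, which gave 15 probe sets of the 22690 on the array. Of the 10 genes, 7 had 1 probe set. All 10 genes passed a filter on dim signals and were among the 7924 genes tested, and 1 further probe set annotated to a member together with other genes was left out. The data came from 11 male mice of a mixed background, with liver RNA of each mouse on an array of its own. The 3 groups were Akt1 double transgenic mice (DTG) on a high-fat diet (n = 4), wild-type mice fed the same high-fat diet (n = 4) and wild-type mice kept on normal diet (n = 3). All of them, wild types included, received doxycycline for 3 weeks, and muscle hypertrophy was recorded for the DTG mice alone. Doxycycline switches on inducible transgenes. In the published line of this design a muscle promoter drives the activator, so that active Akt1 is made in skeletal muscle and not in the liver, but the labels name neither promoter nor age. The question was how liver expression responds to a high-fat diet and to the growth of Akt1 muscle on that diet.

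Conjugation to glutathione makes electrophilic drugs, toxins and products of lipid peroxidation more soluble, and the conjugates are exported or trimmed and acetylated to mercapturates. Cytosolic transferases work as dimers within a class, and hepatocytes hold several classes at high levels. Alpha and mu genes of mouse liver are known targets of the transcription factor NRF2 and of the xenobiotic receptors CAR and PXR, and some are lowered during the hepatic acute phase response.

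The values were MAS5 signals on a linear scale with arrays already scaled to one another, so a signal compares the same probe set across mice and not one gene with another. Median signals lay between 97.2 and 118.4 per array. DTG array 3 stood apart with a mean poly-A spike signal of 126, against 310 to 525 on the other 10 arrays, and a Gapdh 3'/5' ratio of 0.823, against 0.669 to 0.768. It was the lowest of its group for 7 of the 10 genes. DTG arrays 3 and 4 had top signals of 42425.5 and 43272.9, against 27779.5 to 35450.1 elsewhere. All 3 hepatocyte markers on the array passed the filter, and their summed signal spanned 75905.0 to 104316.1 in DTG, 73086.5 to 85942.5 in high-fat wild-type and 68173.7 to 79014.9 in normal-diet livers. The 4 skeletal muscle markers were all under the filter. No liver measurement here checks the transgene itself.

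Between DTG and wild-type mice that ate the same high-fat diet, Gsta2 alone of the members was called lower with 1 probe set per gene. The dimmer probe set of Gsta3, given below, was called lower too in the fit of all probe sets. Gsta2 encodes an alpha-class enzyme that conjugates electrophiles and reduces organic hydroperoxides. The probe set 1421040_a_at gave 712.3, 219.7, 188.2 and 235.1 in DTG livers, against 1448.5, 2133.0, 866.9 and 973.9 in high-fat wild-type livers and 2859.5, 1736.0 and 2633.4 in normal-diet livers. Every DTG array lay under every wild-type array of either diet, and DTG array 1 was the highest of its group. The means were 339 ± 250 in DTG and 1356 ± 577 in high-fat wild-type livers (SD, n = 4 each). Gsta2 was 4.41-fold lower in DTG than in high-fat wild-type livers, a log2 difference of -2.14 ± 0.40 (SE, 95% interval -3.00 to -1.27, limma adjusted p = 0.0482). It had the lowest log2 difference of the 7924 genes in this comparison, rank 1, and ranked 25 by p. The call did not hold when any one array of the pair of groups other than DTG array 1 was left out. The limma adjusted p was 0.144, 0.0598, 0.106 and 0.106 without high-fat wild-type arrays 1, 2, 3 and 4, and 0.103, 0.114 and 0.148 without DTG arrays 2, 3 and 4, with log2 differences between -2.32 and -1.89. Without DTG arrays 3 and 4 together the log2 difference was -1.68 with a limma adjusted p = 0.303. In bulk liver, fewer cells of a type and less RNA per cell cannot be told apart.

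Gsta3 encodes the alpha enzyme of mouse liver known for detoxifying the epoxide of aflatoxin B1, and its 2 probe sets were both low in DTG livers. Probe set 1423437_at gave 2464.4, 3253.7, 2233.0 and 2775.0 in DTG livers, against 5070.5, 4952.1, 5754.6 and 5817.3 in high-fat wild-type livers and 5193.8, 5358.9 and 3942.2 in normal-diet livers. The DTG arrays were all under the 7 wild-type arrays. It was 2.03-fold lower in DTG than in high-fat wild-type livers, a log2 difference of -1.02 ± 0.13 (SE, 95% interval -1.31 to -0.73, limma adjusted p = 0.0221 over 12526 probe sets). The brighter probe set, 1423436_at, gave 11003.5, 12879.4, 9132.2 and 12560.8 in DTG livers, against 16846.6, 14683.9, 17963.1 and 17320.8 in high-fat wild-type livers and 16855.9, 16331.6 and 16025.7 in normal-diet livers. Its arrays did not overlap either, and its log2 difference of -0.56 ± 0.11 had a limma adjusted p = 0.0608, past the threshold only without high-fat wild-type array 2 among single arrays left out (0.0396). For 1423437_at the limma adjusted p was 0.0505, 0.0778 and 0.0515 without high-fat wild-type arrays 1, 3 and 4, 0.0575 and 0.0941 without DTG arrays 3 and 4, and 0.161 without both of these.

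The promoter windows of Gsta2 and Gsta3 are shown because these were the members with a called probe set in DTG against wild-type livers on the high-fat diet. Each runs 5′ to 3′ on the gene's strand, 250 bases before to 50 after the start in RefSeq (GRCm38.p6). The Gsta2 window is chr9:78347096-78347395 on the minus strand and the Gsta3 window chr1:21240335-21240634 on the plus strand. Capitals mark motif matches, first the antioxidant response element core TGACNNNGC on the plus strand and then the GATA site AGATAA read on the opposite strand.
Gsta2: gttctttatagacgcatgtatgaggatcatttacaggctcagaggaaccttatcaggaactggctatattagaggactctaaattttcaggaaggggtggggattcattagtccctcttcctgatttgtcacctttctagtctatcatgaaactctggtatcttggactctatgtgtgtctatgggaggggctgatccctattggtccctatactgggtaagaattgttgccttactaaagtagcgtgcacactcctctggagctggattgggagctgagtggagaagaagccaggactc
Gsta3: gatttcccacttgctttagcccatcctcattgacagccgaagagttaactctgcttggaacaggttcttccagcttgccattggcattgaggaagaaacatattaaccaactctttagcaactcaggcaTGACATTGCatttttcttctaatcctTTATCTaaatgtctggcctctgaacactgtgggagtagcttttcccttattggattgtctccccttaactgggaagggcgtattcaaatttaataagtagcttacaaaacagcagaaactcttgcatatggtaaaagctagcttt
The search covered both strands of the 13 windows of 9 members, Gsta4 not among them, and the motifs did not overlap one another in a member. TGACNNNGC was in Gsta3 alone of these 9 genes, and in 14% of all 27025 genes and 12.4% of their 32851 windows. AGATAA was in Gsta3 alone of the 9, and in 12.7% of all genes and 11.2% of all windows. At 1 of 9 genes, neither motif was more frequent among the members than among all genes. The STAT site TTCNNNGAA was in 1 of the Gstm6 windows and in 8.30% of all windows, and the E-box CACGTG was in no member window and in 7.15% of all. The Gsta2 window held none of the 4 motifs.

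Gsta4 encodes the alpha enzyme that prefers 4-hydroxynonenal, an aldehyde of lipid peroxidation. Its signal was 2715.8, 1604.9, 1036.1 and 1305.5 in DTG livers, against 2932.7, 2381.9, 2841.0 and 1972.3 in high-fat wild-type livers and 2283.4, 2685.7 and 2384.4 in normal-diet livers. DTG array 1 lay within the wild-type range and the other 3 DTG arrays lay under it. The log2 difference from high-fat wild-type livers was -0.68 ± 0.24 (limma adjusted p = 0.238), and without DTG array 1 it was -0.95 (0.0400). That was the 1 of 18 alternatives in which Gsta4 passed. Over all 18 the log2 difference ran from -0.95 to -0.26, with a limma adjusted p of up to 0.698. DTG array 1 was the highest of its group for both Gsta2 and Gsta4.

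**Figure D1:**
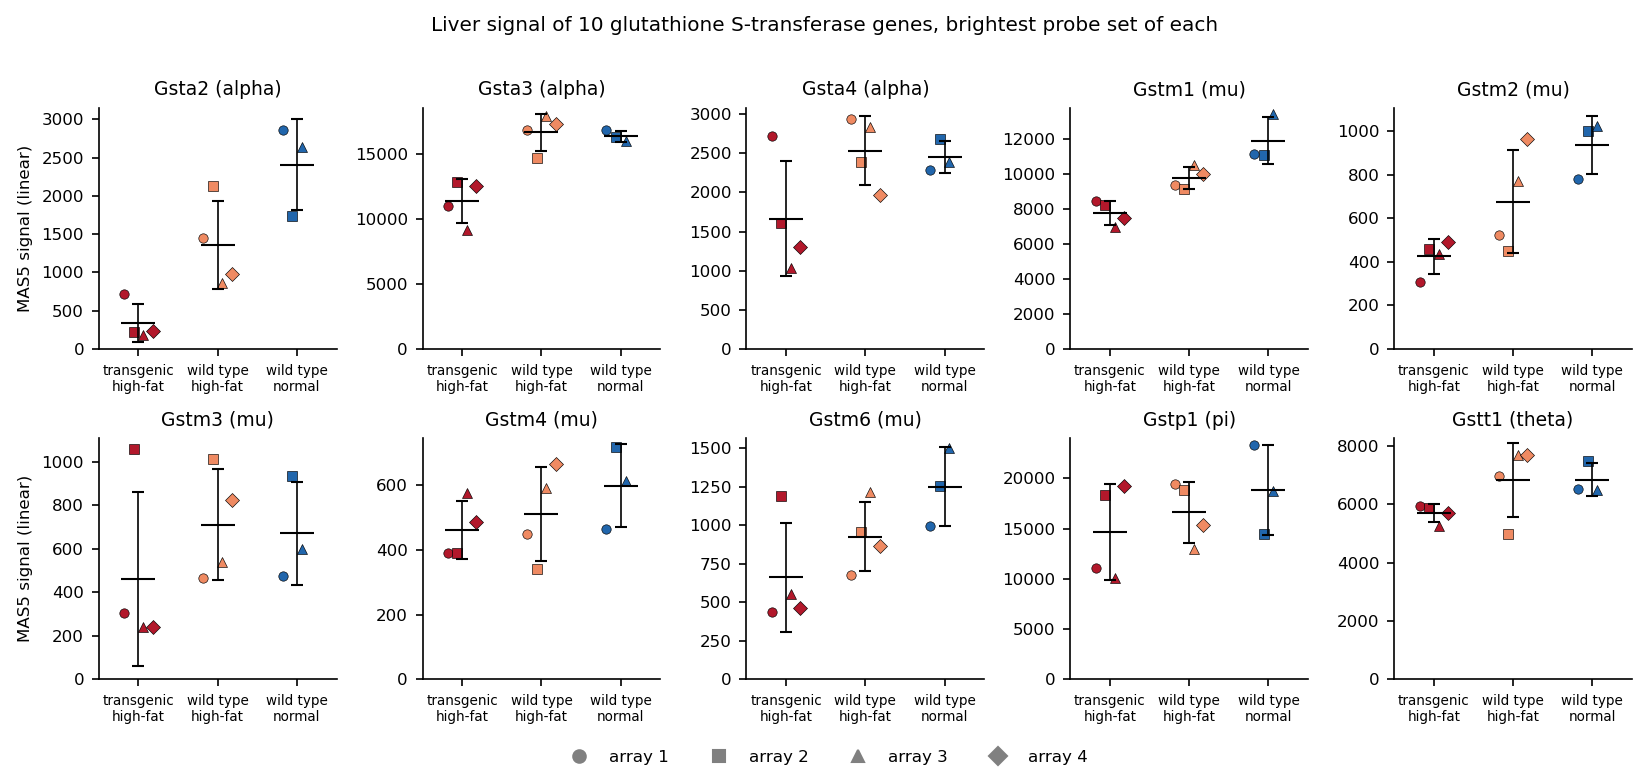
MAS5 signal (linear scale from 0, y axis) of the brightest probe set of each of the 10 genes in 4 DTG high-fat, 4 wild-type high-fat and 3 wild-type normal-diet livers. Points are arrays with one marker shape per array number, the long bar is the mean and the error bar the SD. For Gsta2 the 4 DTG arrays span 188.2 to 712.3, under all 7 wild-type arrays.

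The 5 mu members were lower in DTG than in high-fat wild-type livers by log2 differences of -0.87 to -0.12, and none passed the test. Gstm5 and Gstm7, mu genes outside the members, were not lower, with 0.14 ± 0.16 and 0.03 ± 0.13 (limma adjusted p = 0.744 and 0.941). Of the members Gstm1, the major mu enzyme of mouse liver, came nearest to passing. Its brightest probe set, 1416416_x_at, gave 8437.1, 8240.7, 6974.4 and 7452.2 in DTG livers, against 9355.9, 9138.6, 10515.5 and 9953.4 in high-fat wild-type livers and 11129.8, 11074.2 and 13427.2 in normal-diet livers. The 3 groups formed 3 bands without overlap. The log2 difference of DTG from high-fat wild-type livers was -0.33 ± 0.10 (limma adjusted p = 0.169). Gstm2, another mu enzyme, gave 309.2, 459.1, 437.2 and 493.3 in DTG livers, against 522.7, 450.8, 770.7 and 963.1 in high-fat wild-type livers and 782.0, 1001.3 and 1022.9 in normal-diet livers. Only high-fat wild-type array 2 fell within the DTG range, and the log2 difference between the high-fat groups was -0.63 ± 0.23 (limma adjusted p = 0.250).

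Gstm3 and Gstm6 each had 1 DTG array far above the other 3. Probe set 1427474_s_at of Gstm3 gave 306.7, 1058.2, 239.4 and 240.2 in DTG livers, against 464.3, 1012.8, 540.7 and 825.5 in high-fat wild-type livers and 474.8, 936.0 and 599.5 in normal-diet livers. Array 2 was the highest in each of the 3 groups for this probe set. The log2 difference of DTG from high-fat wild-type livers was -0.87 ± 0.44 (limma adjusted p = 0.409), and the second probe set of Gstm3, 1427473_at, had -0.47 ± 0.42 (0.668). Gstm6 gave 440.3, 1190.7, 553.2 and 462.3 in DTG livers, against 674.8, 953.6, 1213.4 and 865.9 in high-fat wild-type livers and 993.2, 1257.0 and 1502.7 in normal-diet livers. Its log2 difference was -0.58 ± 0.29 (limma adjusted p = 0.405). Gstm4 averaged 461 ± 89.2 in DTG, 511 ± 145 in high-fat wild-type and 598 ± 127 in normal-diet livers, with overlapping arrays and a 95% interval of -0.60 to 0.35 for the log2 difference between the high-fat groups.

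The single pi member and the single theta member did not pass the test, with log2 differences of -0.22 and -0.24 between the high-fat groups. Outside the members, the theta genes Gstt2 and Gstt3 went opposite ways, with 0.34 ± 0.26 and -1.16 ± 0.45 (limma adjusted p = 0.588 and 0.279). Gstp1, which male mouse liver expresses strongly, gave 11061.0, 18375.5, 10080.3 and 19261.1 in DTG livers, against 19412.4, 18821.0, 12947.3 and 15391.8 in high-fat wild-type livers and 23329.0, 14426.1 and 18793.6 in normal-diet livers. The groups overlapped widely, and the 95% interval of the log2 difference between the high-fat groups was -0.72 to 0.28. Gstt1, a theta enzyme that conjugates small halogenated compounds, gave 5926.3, 5885.5, 5262.1 and 5688.3 in DTG livers, against 6978.4, 4990.1, 7679.1 and 7696.1 in high-fat wild-type livers and 6534.0, 7496.4 and 6495.6 in normal-diet livers. Apart from high-fat wild-type array 2, every wild-type array was above the DTG arrays, and the interval between the high-fat groups was -0.53 to 0.04.

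Counted over the 10 genes with the brightest probe set of each, 1 was called lower in DTG than in high-fat wild-type livers. The background was 0.139% of all 7924 genes called lower. That gene, Gsta2, was 1 of the 3 alpha genes. Arrays without overlap and lower in DTG were found for 3 of the 10 genes, Gsta2, Gsta3 and Gstm1, against 4.09% of all genes. An unadjusted p under 0.05 with a lower value in DTG was found for 5 of 10, against 6.74%. A log2 difference below 0 was found for 10 of 10, against 49.8%. Of the 9 other transferases tested, 2 had such a p with a lower value, and 5 were below 0. Here and in the comparisons below such shares are a description only, since the members were chosen with earlier results of these data known. The median log2 difference was -0.57 over the 10 genes, -0.68 over the alpha and -0.58 over the mu members, and 0.00 over all genes tested. Of the 15 probe sets, 2 were called lower, against 0.144% of 12526, 6 had no overlap, against 3.81%, and 15 were below 0, against 48.4%. These probe sets are not independent, since several read the same gene, and mu genes lie beside one another on chromosome 3 in the RefSeq order Gstm7, Gstm6, Gstm3, Gstm2, Gstm1, Gstm4.

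**Figure D2:**
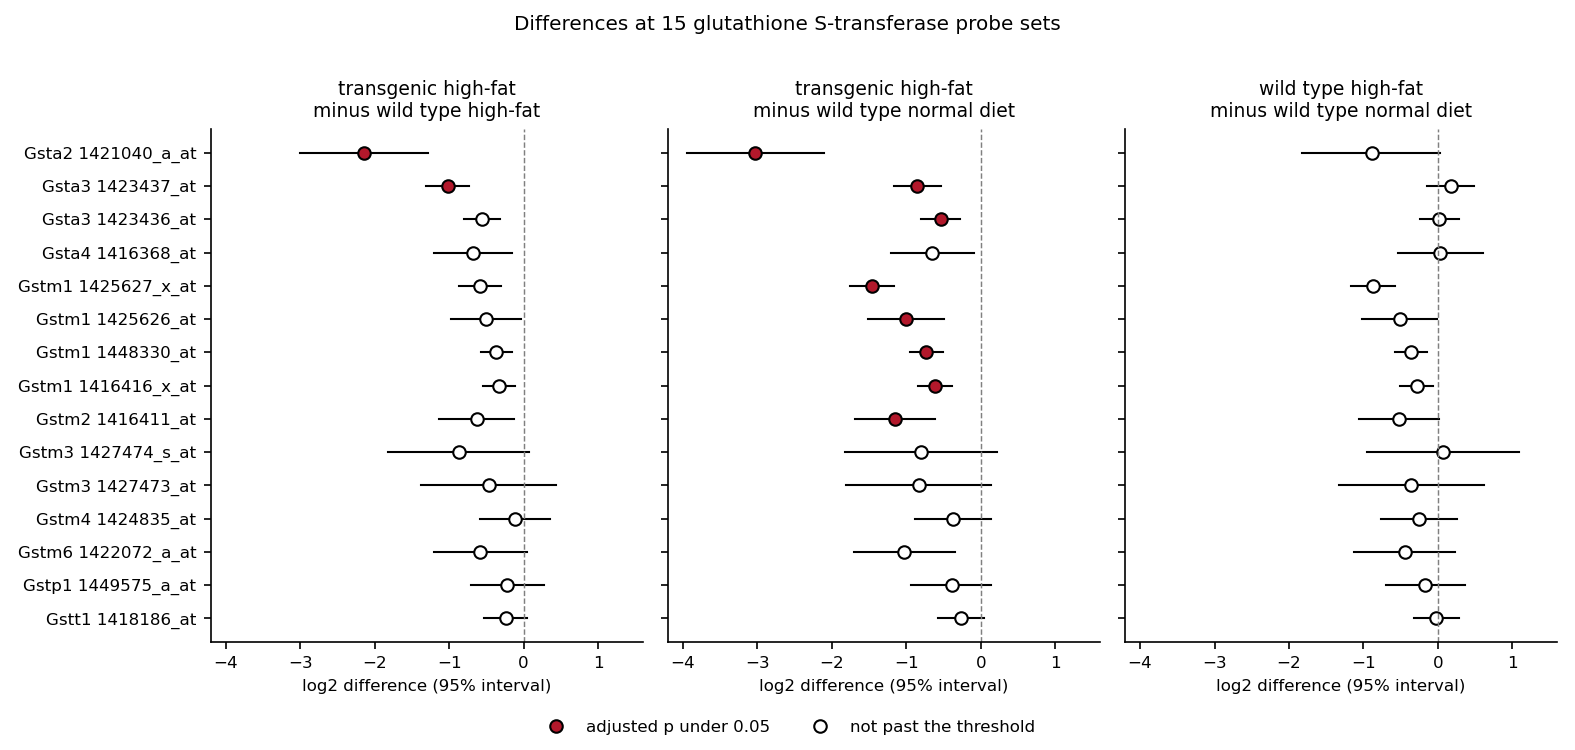
Log2 difference (x axis) at the 15 probe sets with its 95% interval from limma, in 3 panels for DTG high-fat minus wild-type high-fat, DTG high-fat minus wild-type normal diet and wild-type high-fat minus wild-type normal diet. Filled points had an adjusted p under 0.05, 2 in the first panel, 8 in the second and 0 in the third.

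Between DTG mice on the high-fat diet and wild-type mice on the normal diet, where genotype and diet differ together, 4 of the 10 genes fell: Gsta2, Gsta3, Gstm1 and Gstm2. The background was 0.681% of all genes called lower. Gsta2 averaged 339 ± 250 in DTG livers (SD, n = 4), against 2410 ± 594 in normal-diet livers (SD, n = 3), which was 8.17-fold lower in DTG (log2 difference -3.03 ± 0.43, limma adjusted p = 0.00731). This call held with each single array left out and was lost only without DTG arrays 3 and 4 together (log2 -2.57, adjusted p = 0.0723) among the alternatives run. Gstm2 was 2.22-fold lower in DTG (-1.15 ± 0.25, limma adjusted p = 0.0413), Gstm1 1.53-fold lower (-0.61 ± 0.10, limma adjusted p = 0.0157) and Gsta3 1.45-fold lower (-0.54 ± 0.12, limma adjusted p = 0.0456). Each of these 3 genes had no overlap of its DTG arrays with the normal-diet arrays. Gstt1 did not overlap either, with a log2 difference of -0.26 ± 0.14 that did not pass (limma adjusted p = 0.347), so arrays without overlap numbered 5 of 10, against 7.10% of all genes. An unadjusted p under 0.05 with a lower value in DTG was found for 6 of 10, against 8.35%. Gstm6 had -1.03 ± 0.31 (limma adjusted p = 0.114), and without DTG array 2 -1.35 (0.0204). Gsta4 had -0.65 ± 0.26 (limma adjusted p = 0.216), and without DTG array 1 -0.92 (0.0303). Gstm6 and Gsta4 each passed in only 1 of 17 alternatives. Over the 17 their log2 differences were as small as -0.77 and -0.23, with limma adjusted p-values of up to 0.388 and 0.681. All 10 genes were below 0, against 49.4% of all genes, while 3 of the 9 other transferases tested were. The median was -0.63 over the 10, -0.65 over the alpha and -0.80 over the mu members, against 0.00 over all genes. The mu genes Gstm5 and Gstm7 had 0.42 ± 0.17 and 0.25 ± 0.14 (limma adjusted p = 0.23 and 0.377). The DTG arrays are shared with the comparison on the high-fat diet.

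Calls among these genes depended on single arrays apart from that of Gsta2. The limma adjusted p of Gsta3 was 0.0708, 0.0653 and 0.0695 without DTG arrays 1, 3 and 4, and 0.109, 0.124 and 0.112 without normal-diet arrays 1, 2 and 3. That of Gstm2 was 0.0653, 0.0637, 0.0699 and 0.0744 without DTG arrays 1 to 4 in turn, and 0.0608, 0.126 and 0.128 without normal-diet arrays 1 to 3. That of Gstm1 was 0.0530 without DTG array 4 and 0.0529 without normal-diet array 3. Without DTG arrays 3 and 4 together 0 of the 10 genes passed.

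Diet alone changed none of the members past the threshold. Between high-fat and normal-diet wild-type livers 0 of the 10 genes were called by limma, and the background was 0% of all 7924 genes. At an unadjusted p under 0.05 1 of 10, Gstm1, was lower on the high-fat diet, against 3.09% of all genes. Gstm1 was also the 1 gene of 10 whose arrays did not overlap, against 3.33%. Its 1416416_x_at signal averaged 9741 ± 621 in high-fat livers (SD, n = 4) and 11877 ± 1343 in normal-diet livers (SD, n = 3), a log2 difference of -0.28 ± 0.10 (limma adjusted p = 0.670). Gsta2 averaged 1356 ± 577 in high-fat and 2410 ± 594 in normal-diet livers, with a 95% interval of -1.83 to 0.04 on the log2 scale, so a fall of up to that size cannot be told from no change. Gsta3 had an interval of -0.24 to 0.29. Of the 10 genes, 7 were below 0, against 48.9% of all genes. The medians were -0.21 over the 10 genes, 0.02 over the alpha and -0.28 over the mu members, against 0.01 over all. The mu genes Gstm5 and Gstm7 had 0.28 ± 0.17 and 0.22 ± 0.14 (limma adjusted p = 0.804 and 0.807). The high-fat wild-type arrays are shared with the comparison of DTG and wild-type livers.

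The 4 probe sets of Gstm1 allowed the gene to be read more than once. The probe set 1425627_x_at gave 1298.0, 1091.5, 895.4 and 908.9 in DTG livers, against 1531.3, 1749.5, 1359.7 and 1624.6 in high-fat wild-type livers and 2986.8, 2752.2 and 2839.1 in normal-diet livers. Its 3 groups stood apart with no overlap. It was 2.76-fold lower in DTG than in normal-diet livers (log2 difference -1.46 ± 0.14, limma adjusted p = 0.00103). On the high-fat diet its difference between DTG and wild type was -0.59 ± 0.13 (limma adjusted p = 0.0767), and 0.0295 without DTG array 1. Between the diets in wild type it was -0.87 ± 0.14 (limma adjusted p = 0.134), in a comparison in which limma called 0% of 12526 probe sets.

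The other 3 probe sets of Gstm1 ran the same way with smaller or noisier differences. DTG livers averaged 60.1% ± 4.40 of the normal-diet mean for 1448330_at and 51.0% ± 16.3 for 1425626_at, and high-fat wild-type livers averaged 77.4% ± 2.24 and 69.6% ± 8.29 (SD, n = 4 each). All 4 probe sets were called lower in DTG than in normal-diet livers, with limma adjusted p-values of 0.00755 for 1448330_at, 0.0155 for 1416416_x_at and 0.0495 for 1425626_at. Those of 1425627_x_at and 1448330_at were the 2 that also held without DTG arrays 3 and 4. The limma adjusted p of 1425626_at was 0.100 and 0.122 without DTG arrays 3 and 4 and 0.133, 0.158 and 0.0645 without normal-diet arrays 1, 2 and 3, and that of 1416416_x_at was 0.0542 without DTG array 4 and 0.0595 without normal-diet array 3. All 4 had high-fat wild-type arrays under normal-diet arrays without overlap. Over the 15 probe sets, 8 were called lower in DTG than in normal-diet livers, against 0.655% of all probe sets, 9 had no overlap, against 6.90%, and 15 were below 0, against 49.0%. Between the diets in wild type, 4 of the 15 had no overlap with high-fat arrays lower, all of them of Gstm1, against 3.54%, and 11 were below 0, against 50.1%. The suffix _x_at marks probe sets that may also bind transcripts of related genes, so 2 of the 4 may carry other mu transcripts. Probe sets ending in _s_at or _a_at may also cover several transferase genes. These are the brighter one of Gstm3 (_s_at) and those of Gsta2, Gstm6 and Gstp1 (_a_at). Without probe sequences this could not be checked.

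**Figure D3:**
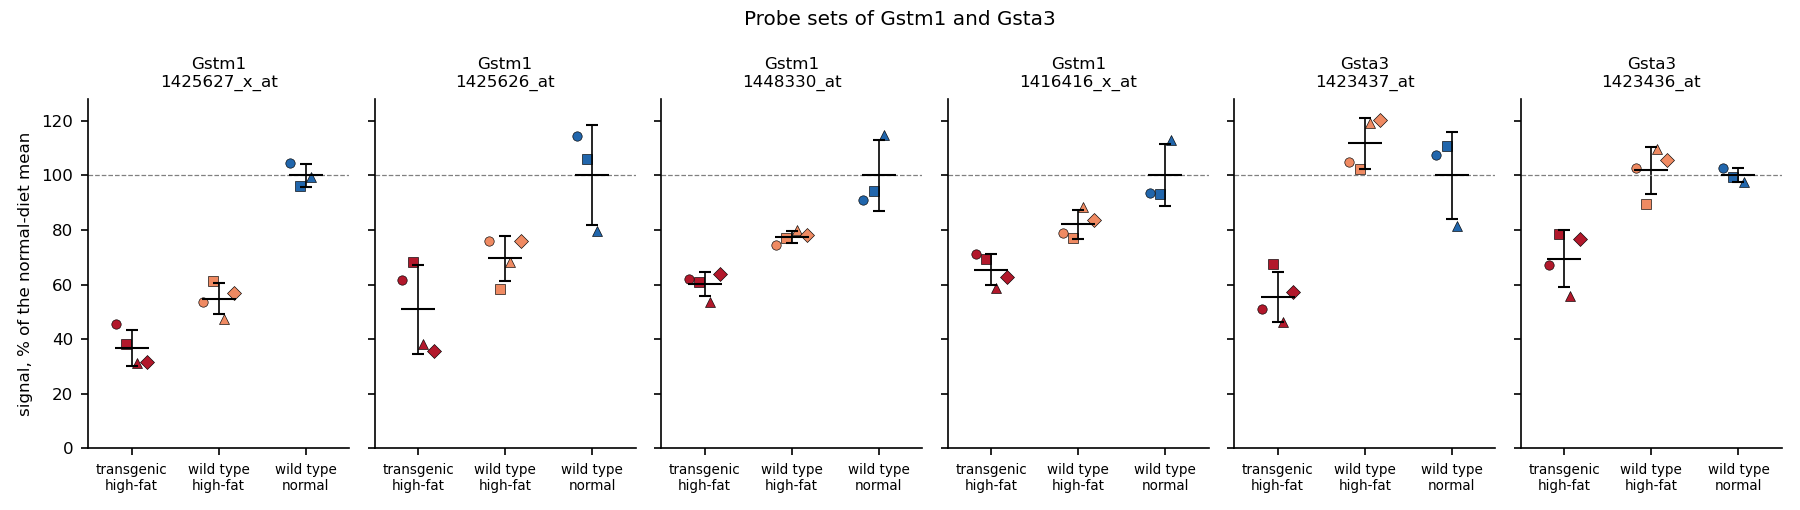
Signal as a percentage of the normal-diet mean of the same probe set (y axis from 0) for the 4 probe sets of Gstm1 and the 2 of Gsta3, in DTG high-fat, wild-type high-fat and wild-type normal-diet livers. Points are arrays with the same marker shape per array number in all panels, long bars means and error bars SD. Gstm1 shows high-fat wild-type livers between the other groups, at 54.8% for 1425627_x_at, while Gsta3 shows them near the normal-diet mean, at 112% for 1423437_at and 102% for 1423436_at.

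Around the 10 genes, 70 other genes of glutathione metabolism and its regulation were tested in 7 lists. In DTG against high-fat wild-type livers 0 of the 70 were called higher and 1 lower, against 0.227% and 0.139% of all genes. At an unadjusted p under 0.05, 5 of the 70 were higher and 12 lower, against 6.95% and 6.74% of all genes. The called gene was Nat8, which acetylates cysteine conjugates in the last step to mercapturates, with 309 ± 64.4 in DTG and 729 ± 172 in high-fat wild-type livers (SD, n = 4 each, log2 difference -1.23 ± 0.21, limma adjusted p = 0.0398). It was past the threshold without DTG array 1 or without high-fat wild-type array 2 or 4, and its limma adjusted p was 0.0777, 0.0854 and 0.116 without DTG arrays 2, 3 and 4, and 0.134 and 0.108 without high-fat wild-type arrays 1 and 3. Without DTG arrays 3 and 4 together it was 0.258, without the variance trend 0.0814 and with only the groups compared 0.0601. Diet in wild type changed 0 of the 70 past the threshold in limma, with 6 higher and 3 lower at an unadjusted p under 0.05, against 3.92% and 3.09% of all genes.

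Other glutathione S-transferases had a median log2 difference of -0.07 over 9 genes between the high-fat groups, beside -0.57 over the 10 members. None of the 9 passed, and the nearest were Gstt3 of the theta class with -1.16 ± 0.45 (limma adjusted p = 0.279) and Gstz1, an enzyme of tyrosine breakdown, with -0.23 ± 0.10 (0.355). Glutathione synthesis had a median of -0.06 over 6 genes, and its nearest genes were the synthetase Gss with 0.27 ± 0.13 (limma adjusted p = 0.385) and the transsulfuration enzyme Cbs with 0.40 ± 0.20 (0.415). Glutathione recycling and use had a median of -0.06 over 12 genes, with -0.35 ± 0.12 for the lipid hydroperoxidase Gpx4 (limma adjusted p = 0.213) and -0.28 ± 0.09 for the glyoxalase pathway enzyme Hagh (0.217). Conjugate export had a median of -0.44 over 5 genes, with -0.54 ± 0.17 for Abcg2 (limma adjusted p = 0.210) and -0.48 ± 0.18 for Abcc2 (0.275), both pumps of the bile canaliculus. Conjugate breakdown had a median of 0.08 over 8 genes. The median of all genes tested was 0.00.

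Transcription factors known to act on these genes had a median of -0.05 over 20 genes between the high-fat groups, and 0 passed in the fit of 1 probe set per gene. Stat3, which carries interleukin-6 signals in hepatocytes, averaged 2852 ± 409 in DTG and 1812 ± 308 in high-fat wild-type livers (SD, n = 4 each, log2 difference 0.66 ± 0.14, limma adjusted p = 0.0721). The limma adjusted p was 0.0470 without DTG array 1, but 0.0697 to 0.203 without each other single array of these groups. Without DTG arrays 3 and 4 together it was 0.303. The second probe set of Stat3, 1460700_at, was called higher in the fit of all probe sets (log2 difference 0.73, limma adjusted p = 0.0480). The small Maf protein Maff was dim, with 106 ± 44.4 in DTG, 34.0 ± 26.1 in high-fat wild-type and 88.9 ± 9.46 in normal-diet livers, and the high-fat wild-type mean was below the signal of the filter. Its log2 differences were 1.99 ± 0.61 between the high-fat groups (limma adjusted p = 0.182), 0.15 ± 0.65 between DTG and normal-diet livers (0.929) and -1.85 ± 0.65 between the diets (0.658). Genes used as readouts of these regulators had a median of -0.01 over 10 genes, and the nearest to the threshold were Cyp1a2, a target of the aryl hydrocarbon receptor, with -0.59 ± 0.18 (limma adjusted p = 0.197) and the carboxylesterase Ces2a with -0.57 ± 0.19 (0.220). In DTG against normal-diet livers, 2 of the 70 were called higher and 1 lower, against 1.40% and 0.681% of all genes, and 5 were higher and 13 lower at an unadjusted p under 0.05, against 9.96% and 8.35%. Stat3 rose (1.02 ± 0.15, limma adjusted p = 0.00928), as did Lap3, an aminopeptidase that can split cysteinylglycine (0.49 ± 0.11, limma adjusted p = 0.0445). Ces2a fell (-1.25 ± 0.21, limma adjusted p = 0.0150), and the other 67 genes did not pass. Without DTG arrays 3 and 4 the limma adjusted p-values were 0.0715 for Stat3, 0.192 for Lap3 and 0.101 for Ces2a. That of Lap3 lay between 0.0502 and 0.150 with any one array of the pair left out, and that of Ces2a was 0.0510 without normal-diet array 1.

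**Figure D4:**
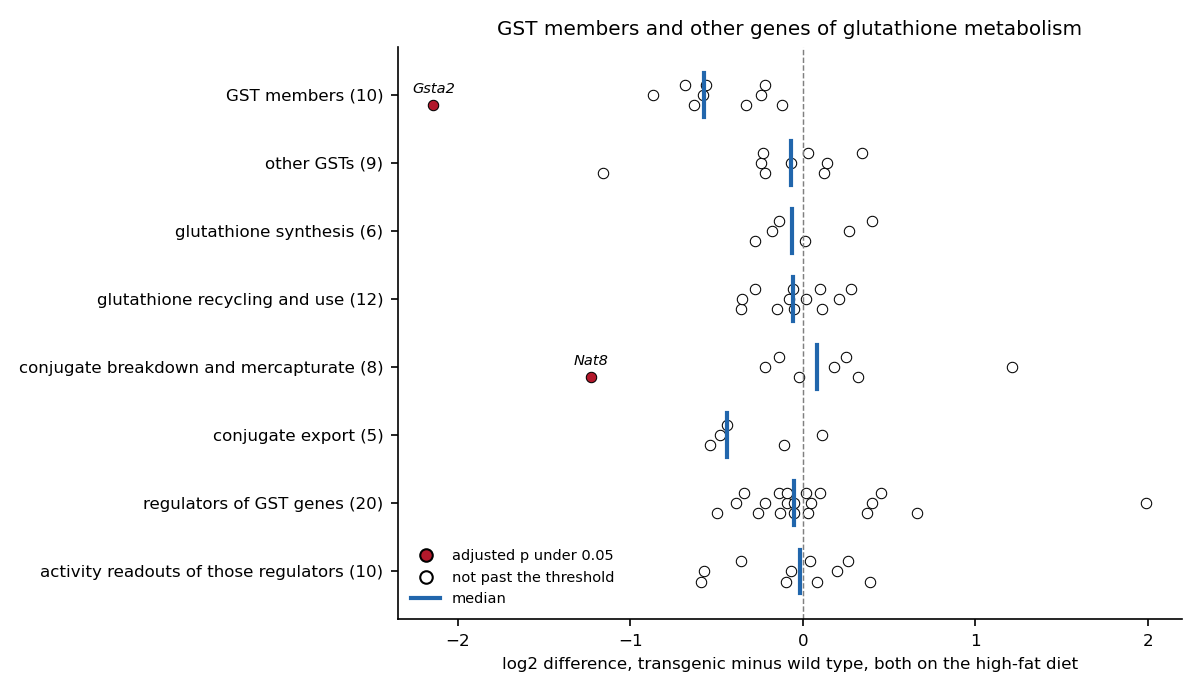
Log2 difference of DTG minus wild-type livers, both on the high-fat diet (x axis), for the 10 members and 7 lists of other genes, with the number of genes tested in brackets. Each point is a gene, filled where the adjusted p was under 0.05 (Gsta2 and Nat8), and the vertical bar is the median of the list, -0.57 for the members.

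Markers of immune cells were also read in the 3 groups. The summed signal of the 7 neutrophil markers on the array was 394.8 to 1815.6 in DTG, 165.9 to 268.4 in high-fat wild-type and 127.7 to 236.5 in normal-diet livers, and 1 of them passed the filter. That one was Prtn3, a protease of neutrophil granules. It was higher in DTG than in high-fat wild-type livers by 4.89 ± 0.75 on the log2 scale (limma adjusted p = 0.0317). Against normal-diet livers it was higher by 4.47 ± 0.81 (limma adjusted p = 0.0183). The filter used the mean over the arrays of all groups, so Prtn3 could pass it through its DTG signal. Given the DTG sums and the difference between the high-fat groups, its high-fat wild-type mean log2 signal lay below the filter. The size of that difference therefore rests on dim wild-type signals. The summed signal of 10 Kupffer cell and macrophage markers was 4169.7 to 11684.9 in DTG, 3634.8 to 7602.5 in high-fat wild-type and 2526.7 to 4705.7 in normal-diet livers. Of the 9 past the filter, 0 passed the test between the high-fat groups and 2, Cd5l (log2 difference 2.02 ± 0.46, limma adjusted p = 0.0456) and Folr2 (1.53 ± 0.34, 0.0447), were higher in DTG than in normal-diet livers. Of all genes, 0.227% and 1.40% were called higher in these comparisons. The 7 T and B lymphocyte markers on the array were all under the filter. Their sums were 179.1 to 289.6 in DTG, 126.0 to 217.2 in high-fat wild-type and 170.6 to 175.2 in normal-diet livers. None of the 7 liver endothelial and 5 stellate cell markers past the filter passed the test in any of the 3 comparisons. The part of these cells in the lower transferase signals was not tested.

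By Pearson correlation of log2 signal over the 11 arrays, the genes most like Gsta2 outside the family were Larp4b, Pon2, Taf4, Gsn and Atp5j, each with r = 0.93. The arrays of a group share their treatment, and with the group means removed r was 0.74, 0.53, 0.75, 0.73 and 0.82 for these 5. Among the members r with Gsta2 was highest for Gstm1 (0.85) and Gsta4 (0.78). With the group means removed it was 0.19 for Gstm1, 0.64 for Gsta4, -0.21 for Gsta3 and -0.81 for Gstm2, so within groups the members did not vary as one.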

How the data were processed

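Liver RNA was labelled with biotin after poly-dT priming, per the labels' protocols. The deposited intensity values (signal) came from MAS5, per the submitters' processing notes, with no version stated. MAS5 reads and scales each array alone, and the trimmed mean signal was 500.3 on every array. No detection calls were used, so signal over background was not judged, and the number of arrays limits precision. By the platform annotation, 20380 of 22690 probe sets had 1 symbol, 691 several, 1555 none, and 64 were controls. Signals below 1 (1386 values) were raised to 1 and log2 values taken, with no added scaling. The dimmest 40% of probe sets by mean log2 signal, below a signal near 53.0, were dropped, and the brightest remaining probe set stood for its gene. Another fit used all 12526 probe sets past the filter.

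The fit was limma 3.58.1 (R 4.3.3) with an intensity trend in eBayes, one mean for each group and all 11 arrays together. Tests were two-sided, and called means a Benjamini-Hochberg adjusted p under 0.05 over everything fitted. Each ± beside a log2 difference is its moderated standard error, and folds are antilogs of these differences. The labels number the mice without saying how they were bred or housed, so p-values measure the spread between these samples.

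The members, lists and tests were chosen with earlier results of these data known. Named genes were all members and the 5 genes of highest correlation with Gsta2. In each list they were those past the threshold in any comparison plus the 2 of smallest p between the high-fat groups (called nearest). The other mu and theta genes tested were named too. On simulated data of 7924 genes for DTG against wild type on the high-fat diet, 70% of 2-fold and 97% of 4-fold rises were recovered. There were 9 false calls. The simulation used independent normal errors, raised genes only, and changed more genes than the 29 called in the data. A larger number of changed genes eases the adjusted threshold, so these shares may overstate recovery in the data. The alternatives changed normalization (quantile), floor (log2 of signal plus 32), filter (none, 60%), probe sets per gene, trend, array weights, groups in the fit and the replicate block, or left out each array in turn and DTG arrays 3 and 4 together.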

Additional observations from a re-analysis of the deposited data

Results flagged for a closer look

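Over 30 sets of 4 arrays tested (15 probe sets in both high-fat groups, on the log2 scale, where chance gives about 1 in 20), 2 held an array far from the other 3. For Gsta2 DTG array 1 read 712.3, and the other 3 DTG arrays read 188.2 to 235.1, a gap of 0.83 of the range that passed Dixon's 95% critical value. For Gstm3, probe set 1427474_s_at, DTG array 2 read 1058.2, and the others 239.4 to 306.7, again a gap of 0.83 of the range. Both arrays are the highest of their group for these probe sets, so the DTG means of the 2 genes are lower without them.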

How the results depend on the processing

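Between DTG and wild-type livers on the high-fat diet, the count of 1 called gene became 2 with quantile normalization and with array weights (Gsta2 and Gsta3 in both), and 0 without the filter, without the trend, with only the groups compared and without DTG arrays 3 and 4. It ran from 0 to 2 with single arrays left out. The count of 2 probe sets became 3 with quantile normalization and with array weights (the brighter of Gsta3 added in both), 1 without the filter and with only the groups compared, and 0 without the trend and without DTG arrays 3 and 4. It ran from 0 to 4 with single arrays left out. The count over all probe sets, 48, became 53, 86, 22, 10, 0 and 4 in these 6 fits in turn. With single arrays left out it ran from 0 to 88. The limma adjusted p of Gsta2 ranged from 0.0134 to 0.303 and was not past the threshold in 11 of 18 alternatives, among them no filter (0.0546), no trend (0.0906) and only the groups compared (0.0782). The count over all genes, 29, became 0 without the trend, 8 with only the groups compared, 12 without the filter, 58 with array weights, 4 without DTG arrays 3 and 4 and 0 to 64 with single arrays left out. Between DTG and normal-diet livers, the count of 4 genes became 3 without the filter and with only the groups compared (Gsta3 lost in both), 2 without the trend and 0 without DTG arrays 3 and 4, and ran from 1 to 4 with single arrays left out. The count of 8 probe sets became 6, 6, 5 and 2 in the same fits, and ran from 4 to 8. Over all probe sets the count of 240 became 201, 161, 111 and 28 in these fits, and ran from 59 to 236. The count over all genes, 165, became 81 without the trend, 104 with only the groups compared, 23 without DTG arrays 3 and 4 and 36 to 162 with single arrays left out. For diet the count was 0 members and 0 member probe sets in every alternative run. Over all genes it was 1 with array weights, 2 with the replicate block and 2 without normal-diet array 2. Over all probe sets it was 0, 2 and 2 in the same fits. The cause of these shifts was not tested, beyond fewer arrays in the fits that leave arrays out.

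With the replicate block, members were 1 of 31 genes and 2 of 45 probe sets called between the high-fat groups. They were 3 of 139 and 6 of 195 between DTG and normal-diet livers, where Gsta3 was lost (limma adjusted p = 0.0636). Title numbers were not taken to pair the mice, since not every same-numbered pair correlated above 0.1. Between the high-fat groups 3 of 4 did. Correlations of same-numbered deviations from the group means were 0.0842, 0.292, 0.135 and 0.122 between the high-fat groups, 0.0287, -0.00754 and -0.0721 for diet, and -0.00777, -0.0592 and 0.111 between DTG and normal-diet livers.

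Log2 differences that changed sign were all small and past no threshold. Between the high-fat groups, Gstm4 became 0.02 without high-fat wild-type array 4 (-0.30 to 0.02 over single arrays left out). For diet, Gsta3 became -0.02 with quantile normalization, -0.01 with the block and -0.01 without high-fat array 3 (-0.01 to 0.08 over single arrays). Gsta4 became -0.04 and -0.03 without high-fat arrays 1 and 3 and -0.02 without normal-diet array 1 (-0.04 to 0.15). Gstm3 became -0.12 with array weights, -0.12 and -0.02 without high-fat arrays 2 and 4 and -0.15 without normal-diet array 1 (-0.15 to 0.34). Gstt1 became 0.01 with array weights, 0.12 without high-fat array 2 and 0.05 without normal-diet array 2 (-0.08 to 0.12). The other values of the 10 genes kept their direction. Over genes and alternatives, direction and side of the threshold were kept in 164 of 180 values between the high-fat groups, 147 of 160 for diet and 144 of 170 between DTG and normal-diet livers. Most of these values belong to genes not called in the main fit. The call of Gsta2 between the high-fat groups was kept in 7 of 18. Between DTG and normal-diet livers, Gsta2 kept its call in 16 of 17, Gstm1 in 14, Gstm2 in 8 and Gsta3 in 6.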
